A study of Mus musculus with 16 samples.

Results

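The non-clustered protocadherins of mouse dorsal root ganglion neurons were followed here: *Pcdh1*, *Pcdh7*, *Pcdh9*, *Pcdh10*, *Pcdh11x*, *Pcdh17*, *Pcdh18*, *Pcdh19* and *Pcdh20*. These 9 genes, chosen by name, were found by their Ensembl identifiers among the 49671 genes of the 2 count tables. Proprioceptors are the sensory neurons that report muscle length and tension to the spinal cord. Single tdTomato-positive cells of the ganglia were profiled by CEL-Seq2, which tags each captured mRNA molecule near its 3′ end with a unique molecular identifier (UMI). The 10 e15.5 libraries came from *Pv tdTom* embryos, a BAC line in which the parvalbumin (*Pvalb*) promoter drives tdTomato, and the cells were sorted by flow cytometry. The 6 p1 libraries came from pups in which recombinases lit tdTomato, either *Trpv1 Cre* with *Pv Flp* and the *Ai65* reporter or *Pv Cre* with the *Ai14* reporter. The labels call the p1 cells sorted, whereas the methods describe picking by hand under a microscope, and the labels tie neither line nor spinal level to a library. All of these designs need past or present *Pvalb* promoter activity. The *Trpv1 Cre* design also needs *Trpv1* promoter activity, and the paper reports that it labels proprioceptors of back muscles. Cells of other types that used these promoters, or that came along, can be in the wells. No label says that libraries are separate animals, so p-values measure the spread between libraries, which may be technical.

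Protocadherins are cell adhesion proteins of the cadherin superfamily. The non-clustered kind are each encoded by a gene of their own rather than in the large tandem clusters, and many are switched on in restricted sets of neurons, where they bind like molecules on neighbouring cells and take part in axon growth, fascicle formation and synapse formation. By their tails they are split into the delta-1 group (*Pcdh1*, *Pcdh7*, *Pcdh9*, *Pcdh11x*), which carries a motif that binds protein phosphatase 1, and the delta-2 group (*Pcdh8*, *Pcdh10*, *Pcdh17*, *Pcdh18*, *Pcdh19*), several of which recruit the actin-remodelling WAVE complex. *Pcdh20* is usually placed outside both.

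In the GRCm38 annotation the members were scattered. *Pcdh9*, *Pcdh17* and *Pcdh20* lay on chromosome 14 at chr14:93013410-93890679, chr14:84443563-84539002 and chr14:88464743-88471396. *Pcdh10* and *Pcdh18* lay on chromosome 3 at chr3:45378398-45435623 and chr3:49743296-49757325. The X chromosome held *Pcdh11x* at chrX:120290259-120910619 and *Pcdh19* at chrX:133582860-133688987. *Pcdh7* lay at chr5:57717967-58133230 and *Pcdh1* on chromosome 18. Each symbol had 1 identifier and a protein-coding annotation. Exons of 3 members overlap a gene on the opposite strand, and the sources used here do not give whether the counting used strand. The overlapping gene held 510 UMIs beside 27321 of *Pcdh7*, 1 beside *Pcdh10* and 5 beside *Pcdh19*.

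Each library held 96 wells, and 74 to 93 wells of an e15.5 library and 12 to 84 wells of a p1 library reached 10000 UMIs. Library totals ran from 3701900 to 9299431 UMIs at e15.5 and from 386517 to 8814472 at p1, where replicate 3 was the shallow one with 12 usable wells. Wells were clustered with all protocadherin and cadherin genes held out, and clusters were named from marker genes. The e15.5 wells gave 315 proprioceptor-like wells (in all 10 libraries, median 116415 UMIs) and 374 connective-tissue-like wells (median 28497.5). There were also 50 other-sensory-neuron-like wells (median 104380.5), 50 glia-like wells and a cluster of 82 wells that stayed unnamed. Both other-sensory-neuron-like clusters were named from nociceptor markers, and that of 27 wells also held 3 mechanoreceptor markers in most wells. At p1 all 369 usable wells were proprioceptor-like (median 55049). The paper left out a p1 cluster with signs of glial contamination, whereas here no p1 cluster met the rule for glia-like. The proprioceptor markers *Pvalb*, *Runx3*, *Etv1* and *Ntrk3* summed to 4300 to 4890 per 1000000 UMIs (CPM) over the e15.5 proprioceptor-like sums and 3200 to 4340 at p1, against 114 to 252 in connective-tissue-like and 271 to 1570 in other-sensory-neuron-like sums. None of these 4 markers was at 0 in any class, so every class held some of their RNA. Connective tissue markers reached 255 in e15.5 and 2230 in p1 proprioceptor-like sums, against 24300 to 39200 in the connective-tissue-like class. Levels below are likewise the CPM of 1 sum of wells (1 class in 1 library). In such a sum fewer cells with a transcript and less of it per cell cannot be told apart. Because counts come from 3′ tags, levels of different members are not ranked against each other. Fold and log2 differences below are those of the edgeR fit with its TMM scaling, so they are not the ratios of the printed CPM means.

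The first comparison asked which members differ between proprioceptor-like and connective-tissue-like wells, in 10 against 9 sums at e15.5. Glia-like wells, the other non-neuronal class, were not part of this contrast. Of the 8 members with enough counts to test, 7 were higher in proprioceptor-like wells and 1, *Pcdh18*, was lower (edgeR's quasi-likelihood test, p-values adjusted by Benjamini-Hochberg over the 13274 genes tested). The classes differ across most of the transcriptome, with 36.4% of all tested genes called higher and 42.2% lower. The median log2 difference of the tested members was 1.77, beside -0.10 over all genes (0.05 with scaling to total counts).

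Among the delta-1 members, *Pcdh7*, which binds the phosphatase inhibitor SET, had a lowest, median and highest level of 264, 348 and 394 in proprioceptor-like sums and of 33.5, 63.8 and 97.4 in connective-tissue-like sums. The means were 341 ± 41.1 (SD, n = 10) and 66.3 ± 21.9 (SD, n = 9). The ranges did not overlap, and the fitted difference was 2.15 ± 0.20 (SE) on the log2 scale, 4.44-fold (adjusted p = 1.76e-11). *Pcdh11x*, the X-linked member of the group, ran from 83.5 over a median of 146 to 267, against 16.7, 33.0 and 46.6. Every proprioceptor-like sum was above every connective-tissue-like sum, and the level was 4.16-fold higher (log2 2.06 ± 0.26, adjusted p = 1.47e-08). *Pcdh9* was the member closest to parity: its sums ran from 76.9 over 119 to 141 in proprioceptor-like wells and from 20.6 over 75.4 to 121 in connective-tissue-like wells. These ranges overlapped, and the 1.48-fold difference (log2 0.56 ± 0.23, adjusted p = 0.0285) missed the threshold without replicate 5 (0.0599) or replicate 10 (0.0553). *Pcdh1*, a member better known from epithelia, was low throughout, with 6.16, 11.3 and 12.6 against 0.587, 2.81 and 12.7. It was 2.8-fold higher in proprioceptor-like wells although the ranges overlapped (log2 1.48 ± 0.33, adjusted p = 0.000159).

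Among the delta-2 members, *Pcdh10*, known from axon guidance in the forebrain, ran from 83.1 over 136 to 264 in proprioceptor-like sums and from 14.7 over 25.1 to 39.8 in connective-tissue-like sums. The ranges stood apart by a 5.09-fold difference of fitted levels (log2 2.35 ± 0.24, adjusted p = 1.55e-10). *Pcdh19*, the X-linked gene whose loss in people causes an epilepsy, ran from 162 over 304 to 456 against 33.5, 42.4 and 94.5. Here too no sums overlapped, and the level was 5.28-fold higher (log2 2.40 ± 0.31, adjusted p = 2.42e-08). *Pcdh17*, which brings the WAVE complex to contacts between growing axons, was more variable, with 9.58, 35.6 and 73.5 against 3.74, 16.0 and 45.1. It was 2.06-fold higher with overlapping ranges (log2 1.04 ± 0.37, adjusted p = 0.0117).

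*Pcdh18*, a delta-2 member whose tail binds the adaptor Dab1, went the other way. Its levels were 4.11, 14.8 and 24.2 in proprioceptor-like sums and 54.8, 102 and 215 in connective-tissue-like sums. The lowest connective-tissue-like sum lay above the highest proprioceptor-like sum, and the level was 8.12-fold lower in proprioceptor-like wells (log2 -3.02 ± 0.24, adjusted p = 5.08e-13). Within the connective-tissue-like class it was not uniform, at 156.1 in the cluster of 196 wells, 63.92 in that of 155 wells and 77.57 in that of 23 wells. *Pcdh20* was too low to test: 1 UMI in 1 of 10 proprioceptor-like sums.

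**Figure D1:**
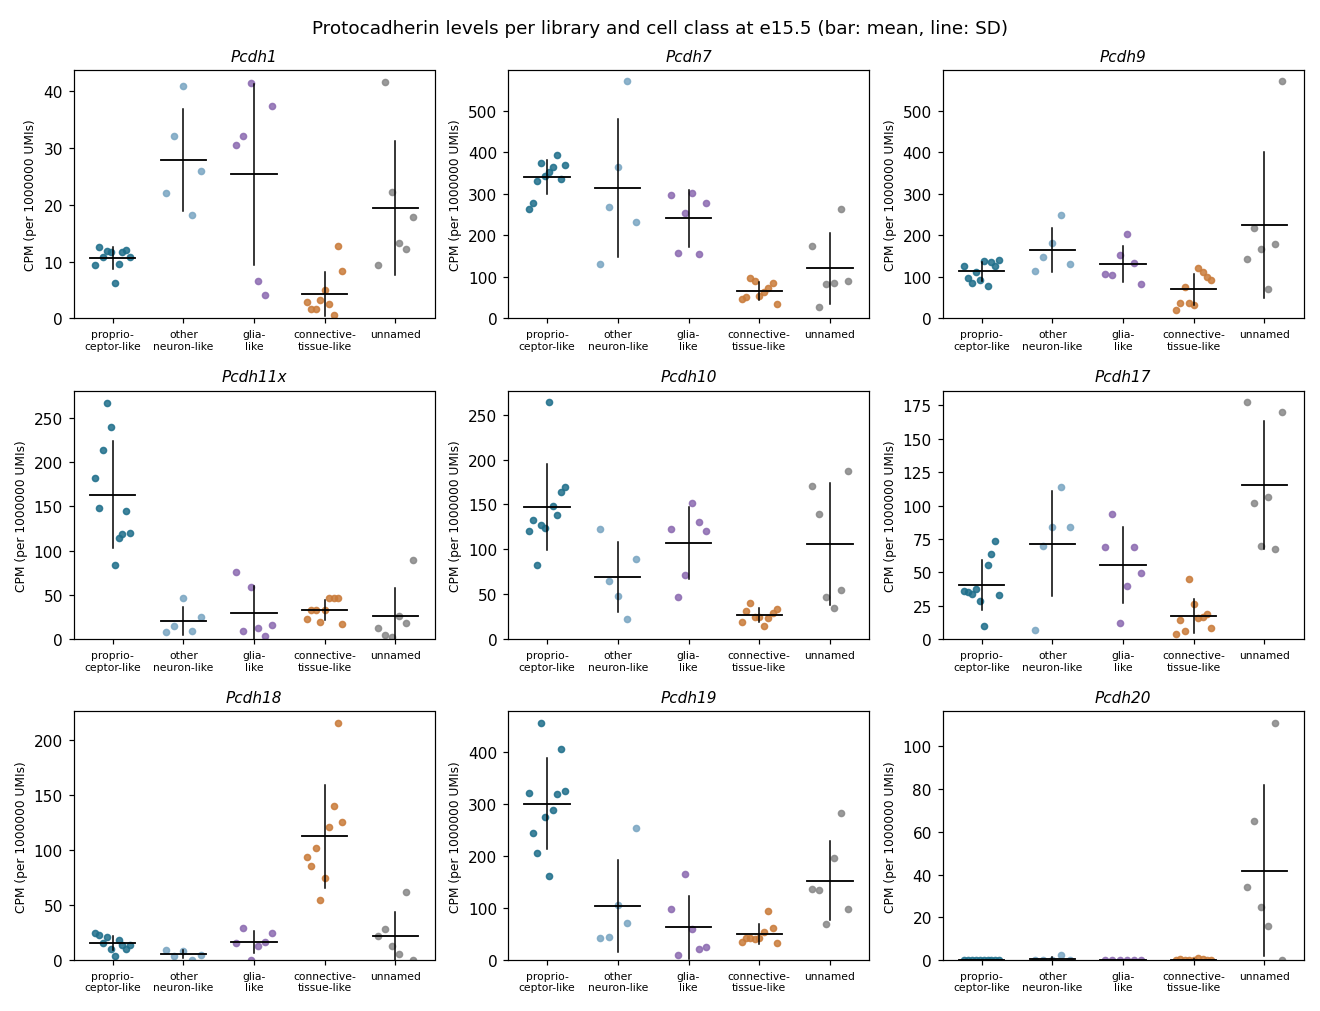
CPM of the members at e15.5, 1 point per library sum, in the proprioceptor-like, other-sensory-neuron-like, glia-like and connective-tissue-like classes and the unnamed cluster. The bar is the mean and the line the SD. Pcdh18 is the member whose connective-tissue-like points (54.8 to 215) all lie above the proprioceptor-like points, and Pcdh11x is low in the other sensory neurons.

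The second comparison set the 10 proprioceptor-like sums against 5 sums of other sensory neurons (replicates 1, 3, 5, 9 and 10), that is, against neurons of the same ganglia. In the same fit 4 of 8 tested members were higher in proprioceptor-like wells, where 8.18% of all genes were called higher, and 1 was lower, where 9.45% were called lower. The members' median was 0.61 on the log2 scale, beside -0.01 over all genes. Nociceptor markers summed to 39.6 to 234 in proprioceptor-like and 462 to 1450 in the other neurons, and mechanoreceptor markers to 8.83 to 78.9 and 559 to 2460.

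*Pcdh11x* showed the widest gap between the neuron classes among the members. The other neurons held 8.11, 14.69, 46.49, 9.76 and 25.21, all under the lowest proprioceptor-like sum of 83.5. The 7.78-fold difference (log2 2.96 ± 0.35, adjusted p = 1.2e-07) passed the threshold in all 16 alternative fits. *Pcdh19* stood at 41.71, 43.52, 106, 71.98 and 255.3 in the other neurons against 162 to 456. Replicate 10 of the other neurons reached into the proprioceptor-like range, and the 2.93-fold difference (log2 1.55 ± 0.36, adjusted p = 0.00223) likewise passed in all 16.

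*Pcdh10* held 122.8, 64.43, 48.35, 21.96 and 89.45 in the other neurons against 83.1 to 264, an overlapping 2.14-fold difference (log2 1.10 ± 0.27, adjusted p = 0.00284). *Pcdh18* held 9.27, 3.39, 8.37, 0 and 4.88 against 4.11 to 24.2 and was 2.99-fold higher in proprioceptor-like wells (log2 1.58 ± 0.44, adjusted p = 0.00993). Both calls were lost with sums of at least 10 wells (adjusted p = 0.0815 and 0.183), that of *Pcdh10* also with the study's quantile filters (0.0646) and that of *Pcdh18* without replicate 3 (0.0684). *Pcdh1* was the member that was lower in proprioceptor-like wells. The other neurons held 22.01, 32.22, 40.91, 18.3 and 26.02, none within the proprioceptor-like range of 6.16 to 12.6, and the level was 2.56-fold lower (log2 -1.36 ± 0.29, adjusted p = 0.000771, and 0.0516 with the quantile filters).

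The remaining delta members did not pass. *Pcdh7* held 130.9, 268.5, 364.5, 572.2 and 232.6 in the other neurons, around the proprioceptor-like range (log2 0.13, adjusted p = 0.786, and 0.0394 with sums of at least 10 wells). *Pcdh9* held 113.5, 146.9, 181.3, 250.1 and 131.7 (log2 -0.52, adjusted p = 0.183), and *Pcdh17* held 6.95, 69.52, 83.68, 113.5 and 83.76 (log2 -0.77, adjusted p = 0.18, and 0.0484 without replicate 1). The class was not uniform. Pooled over libraries, its clusters of 23 and 27 wells held *Pcdh7* at 22.06 and 347.5 and *Pcdh9* at 54.5 and 171.7. *Pcdh17* stood at 36.33 and 81.4 and *Pcdh19* at 27.9 and 121.1. *Pcdh10* stood at 123.9 and 56.74, beside 149.3 in pooled proprioceptor-like wells. *Pcdh11x* (14.27 and 21.14), *Pcdh1* (31.14 and 27.07) and *Pcdh18* (5.84 and 4.45) differed less. Differences between these clusters were not tested.

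Of 17 related genes on a list of the other non-clustered protocadherins and of proteins known to associate with delta protocadherins, 16 could be tested. Against connective-tissue-like wells 9 were higher and 5 lower, and against other sensory neurons 3 were higher and 1 lower. *Pcdh8*, the remaining delta-2 gene, stood at 96.1 ± 25.4 (SD, n = 10) in proprioceptor-like and 6.14 ± 4.93 (SD, n = 9) in connective-tissue-like sums. Its fitted level was 18.2-fold above the connective-tissue-like class (adjusted p = 1.31e-12, a value named after it was seen) and 24.6-fold above other sensory neurons (adjusted p = 3.16e-09). The WAVE complex subunits split by paralogue: *Cyfip2* was 15.3-fold (adjusted p = 1.52e-17) and *Wasf1* 7.71-fold (4.77e-17) above connective-tissue-like wells, whereas *Cyfip1* was 3.77-fold (1.79e-15) and *Wasf2* 5.97-fold (3.45e-18) below them. *Dab1*, the adaptor bound by Pcdh18, was 13.2-fold above the other sensory neurons (adjusted p = 1.81e-05), where *Ppp1cc*, a catalytic subunit of protein phosphatase 1, was 1.48-fold lower (0.0443) and *Cyfip1* 1.39-fold higher (0.0315). All of these adjusted p-values came from the same edgeR fit.

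*Pcdh20* stood out in the unnamed e15.5 cluster, whose sums in replicates 1, 2, 3, 4, 5 and 10 held 34.2, 64.9, 24.8, 16.0, 111 and 0 CPM. The counts behind these were 11, 14, 10, 6, 18 and 0 UMIs. Of the 68 *Pcdh20* UMIs in all e15.5 classes, 59 were in these 82 wells. The cluster was led by *Gpm6a* and *Lamp5*, its proprioceptor markers summed to 196 to 498, and at a median of 18208.5 UMIs its wells were shallower than the proprioceptor-like ones. No test was run on it. In the glia-like wells pooled over libraries, *Pcdh1* (26.39), *Pcdh9* (120.5), *Pcdh17* (66.99) and *Pcdh18* (19.62) stood above the pooled proprioceptor-like wells (11.05, 118.2, 45.21 and 14.2). *Pcdh7* (226.7), *Pcdh10* (104.9), *Pcdh11x* (29.1) and *Pcdh19* (48.72) stood below them (345.9, 149.3, 154.5 and 318). The glia-like wells also held proprioceptor markers at 789 to 2520, and these differences were not tested.

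The third comparison set proprioceptor-like wells at p1 (6 libraries) against e15.5 (10 libraries). Between the stages 4 of 8 tested members were higher at p1 and 1, *Pcdh19*, was lower, where 30.5% of the 13957 genes tested were called higher and 30.9% lower. The median log2 difference was 0.28 for the members and -0.01 for all genes. With scaling to total counts the median of all genes moved to -0.22 and higher calls went from 49.6% to 35.3% of all calls. Age goes together with mouse line (the *Trpv1 Cre* design at p1 labels back-muscle proprioceptors), with sorting against picking and with dissociation time. These cannot be told apart. Mechanoreceptor markers summed to 8.83 to 78.9 at e15.5 and 109 to 270 at p1, with no overlap, and connective tissue markers to 23.6 to 255 and 100 to 2230. Glia markers summed to 15.4 to 392 (median 122) at e15.5 and 116 to 553 (median 256) at p1. The part of these markers' cell types in the member values was not tested.

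*Pcdh9* rose most. The e15.5 sums ran from 76.9 over 119 to 141 and the p1 sums from 291 over 360 to 480, so that every p1 library was above every e15.5 library. The means were 113 ± 23.6 (SD, n = 10) and 385 ± 76.4 (SD, n = 6), and the fitted rise was 3.99-fold (adjusted p = 5.32e-10; log2 1.79 with scaling to total counts). *Pcdh19* fell from 162, 304 and 456 to 68.1, 106 and 168 in the lowest, median and highest libraries. The highest p1 library just reached the lowest e15.5 library, and the level was 2.47-fold lower (log2 -1.31 ± 0.23, adjusted p = 6.48e-05).

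*Pcdh7* moved less, from a median of 348 to 404 with overlapping ranges (p1 376.5 to 444.4), and a fitted 1.4-fold rise (log2 0.48 ± 0.09, adjusted p = 8.75e-05). With scaling to total counts the rise was 0.28 on the log2 scale (adjusted p = 0.0108). *Pcdh17* ran from 31.1 over 59.7 to 126 at p1 against 9.58, 35.6 and 73.5, and rose 1.97-fold (log2 0.98 ± 0.33, adjusted p = 0.0149). Its highest p1 libraries decided this call, as the adjusted p was 0.0561 without p1 replicate 2 and 0.0838 without p1 replicate 5. *Pcdh11x* ran from 163 over 206 to 221 at p1, inside the wider e15.5 range of 83.5 to 267. Its 1.45-fold rise (log2 0.54 ± 0.20, adjusted p = 0.0232) did not hold with scaling to total counts (0.155), without the filter on low counts (0.0822) or with the library number as a block (0.09).

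The other members did not pass between stages. *Pcdh10* had means of 147 ± 47.8 and 128 ± 34.6 (fitted log2 0.07, adjusted p = 0.761, against -0.15 with scaling to total counts), *Pcdh1* of 10.7 ± 1.90 and 8.49 ± 1.72 (log2 -0.13, adjusted p = 0.532), and *Pcdh18* of 15.4 ± 6.37 and 9.86 ± 2.15 (log2 -0.46, adjusted p = 0.13; SD, n = 10 and 6). *Pcdh18* passed as lower at p1 without e15.5 replicate 6 (adjusted p = 0.0311) or with scaling to total counts (0.0321). *Pcdh20* had 4 UMIs in p1 replicate 3 and at most 3 in any other p1 sum, and was not tested. On the list of related genes 4 were higher at p1 and 5 lower: *Cyfip2* was 2.14-fold (adjusted p = 1.66e-09) and *Wasf3* 1.74-fold (4.18e-06) higher, while *Pcdh8* was 3.44-fold (5.78e-05) and *Brk1*, the smallest WAVE subunit, 1.41-fold (3.7e-05) lower by edgeR's quasi-likelihood test.

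**Figure D2:**
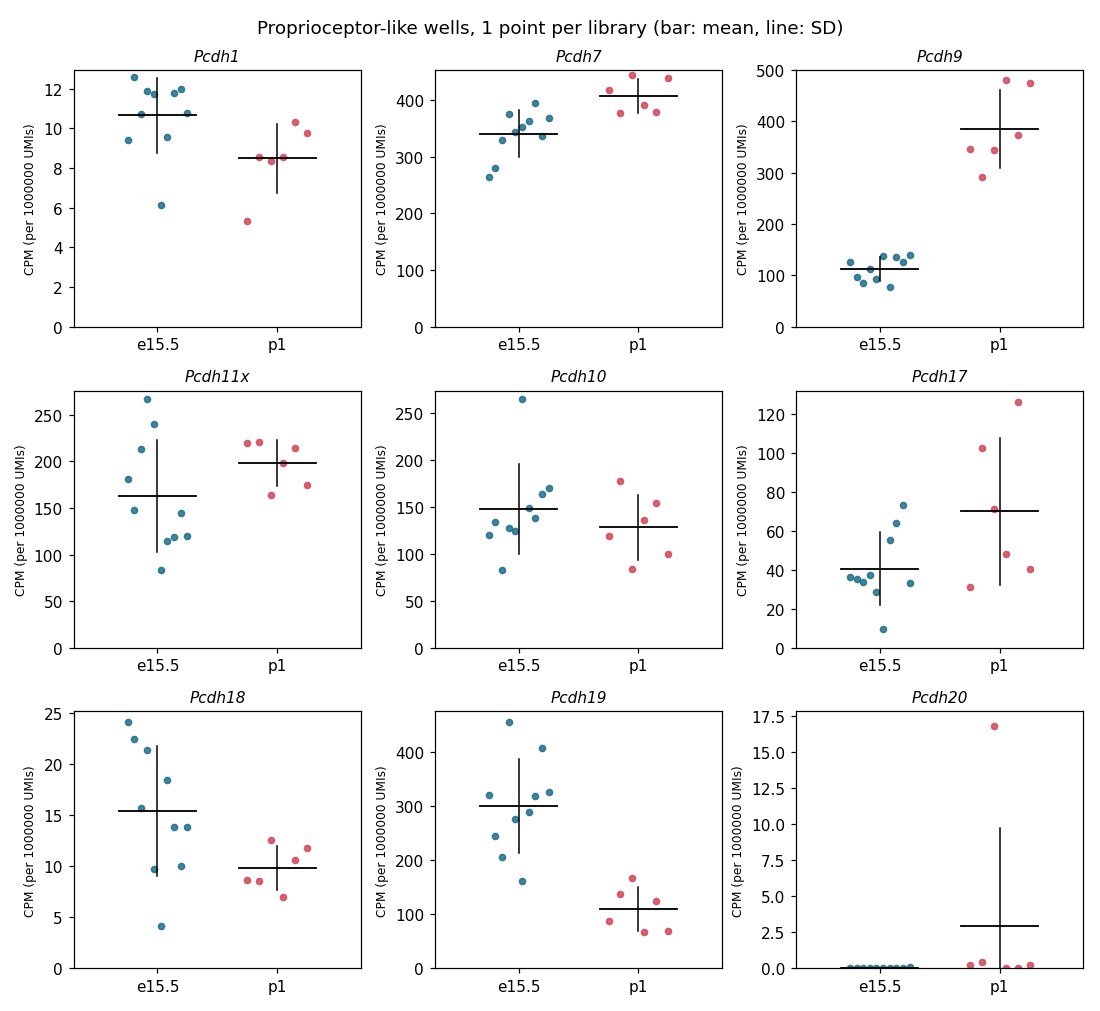
CPM of each member in proprioceptor-like wells, 1 point per library, at e15.5 (10 libraries) and p1 (6 libraries); the bar is the mean and the line the SD. The Pcdh9 points separate completely (76.9 to 141 against 291 to 480), while the Pcdh19 points fall.

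The fourth comparison used *Tox* and *Gabrg1*, which the study uses as markers of proprioceptors of back and of hindlimb muscles. Wells with at least 2 UMIs of 1 marker and 0 of the other were summed per library. Of 107 *Tox* and 31 *Gabrg1* wells at e15.5, 93 were in the 6 *Tox* sums (median 109396 UMIs) and 23 in the 3 *Gabrg1* sums of replicates 8, 9 and 10 (median 153424), the rest being in libraries with too few. Here 4 of 8 tested members differed: *Pcdh7* was higher in *Tox* wells, where 1.9% of the 11209 genes tested were called higher, and the delta-2 members *Pcdh10*, *Pcdh17* and *Pcdh19* were lower, where 2.67% were. In all 4 the sums of the 2 well types did not overlap. The share of all tested genes without overlap was not counted in this or any other comparison. Replicates 8, 9 and 10 gave sums of both types, and replicates 1, 2 and 5 gave *Tox* sums only. The paper collected thoracic and lumbar ganglia separately. Well type thus goes partly with library and possibly with spinal level, and these cannot be fully told apart.

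*Pcdh17* held 20.6, 19.6, 23.4, 17.3, 29.7 and 32.4 in the *Tox* sums and 142.3, 131.2 and 55.1 in the *Gabrg1* sums. The *Tox* sums were alike and all low, and the level was 4.37-fold lower there (log2 -2.13 ± 0.26, adjusted p = 0.000178), a call that held in all 12 alternatives. *Pcdh19* held 310.5, 229.5, 262.8, 188.1, 276 and 356.8 against 614.1, 822.2 and 408.4. It was 2.29-fold lower in *Tox* wells (log2 -1.19 ± 0.20, adjusted p = 0.00176). *Pcdh10* held 73.2, 169.7, 103.9, 77.0, 94.9 and 109.3 against 183.7, 208.5 and 212.5. One *Tox* sum, of replicate 2, came close to the *Gabrg1* sums, and the fitted level was 1.98-fold lower (log2 -0.99 ± 0.19, adjusted p = 0.00577).

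*Pcdh7* had the opposite direction, with 329, 304.5, 392, 515.4, 393 and 449.4 in *Tox* sums and 96, 231.8 and 241.5 in *Gabrg1* sums. Its level was 2-fold higher in *Tox* wells (log2 1.00 ± 0.22, adjusted p = 0.0158). With the study's quantile filters the calls of *Pcdh7* (adjusted p = 0.0691), *Pcdh10* (0.118) and *Pcdh19* (0.108) were lost, and without replicate 9 those of *Pcdh7* (0.0525) and *Pcdh10* (0.0602). The other members did not pass: *Pcdh1* (log2 0.54, adjusted p = 0.418), *Pcdh9* (-0.10, 0.873), *Pcdh11x* (-0.39, 0.518) and *Pcdh18* (1.15, 0.359). Proprioceptor markers were alike in both well types (4460 to 4860 and 4500 to 4590), whereas general sensory neuron markers summed to 4950 to 5650 in *Tox* and 5880 to 6100 in *Gabrg1* wells. Glia markers ran from 15.2 to 457 and 9.43 to 234.

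At p1 the same rule put 77 of 82 *Tox* wells in 4 sums (replicates 1, 4, 5 and 6). It put 70 of 74 *Gabrg1* wells in 3 sums (replicates 1, 2 and 5, with 52 wells from replicate 2). Only replicates 1 and 5 gave both, so well type, library, spinal level and mouse line cannot be fully told apart here either. No member was called higher in *Tox* wells, where 0.355% of 10995 genes were, and 1 was called lower, where 0.618% were. This was *Pcdh19*, with 69.9, 45.9, 74.2 and 63.9 against 100.7, 160.6 and 242. Its sums did not overlap, and it was 2.82-fold lower in *Tox* wells (log2 -1.49 ± 0.26, adjusted p = 0.0238), although the call was lost without any 1 of replicates 2, 4, 5 and 6 (adjusted p up to 0.114).

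*Pcdh10* held 116.1, 101, 81.7 and 105.1 against 121.6, 188.6 and 204.9 (log2 -0.84, adjusted p = 0.0835), and *Pcdh9* held 390, 552, 422 and 500 against 316, 284 and 218 (log2 0.71, adjusted p = 0.114). In neither did the sums overlap, and neither passed. The *Pcdh7* sums did not overlap either (413.8 to 438.4 in *Tox* against 267.4 to 400 in *Gabrg1* wells). *Pcdh17* held 27.0, 50.2, 69.9 and 37.1 against 23.5, 110.8 and 323, where the *Gabrg1* sum of replicate 1 was below all *Tox* sums (log2 -1.88, adjusted p = 0.216). Without replicate 1 *Pcdh10*, *Pcdh9* and *Pcdh17* passed, with adjusted p of 0.0033, 0.0148 and 0.0072. That fit rested on *Tox* sums of replicates 4, 5 and 6 and *Gabrg1* sums of replicates 2 and 5, so only replicate 5 gave both types. *Pcdh7* differed by 0.21 and *Pcdh11x* by -0.32 on the log2 scale (adjusted p = 0.66 and 0.441). The difference between the p1 and the e15.5 effects, tested in 1 edgeR fit chosen after the data were seen, passed for 0 members and for 20 of 12236 genes. The lowest adjusted p among the members was 0.393, for *Pcdh9*, and 2 members had an unadjusted p under 0.05. Of the 16 related genes tested, none passed at either stage by edgeR or DESeq2 (unadjusted p under 0.05 for 0 at e15.5 and 1 at p1).

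**Figure D3:**
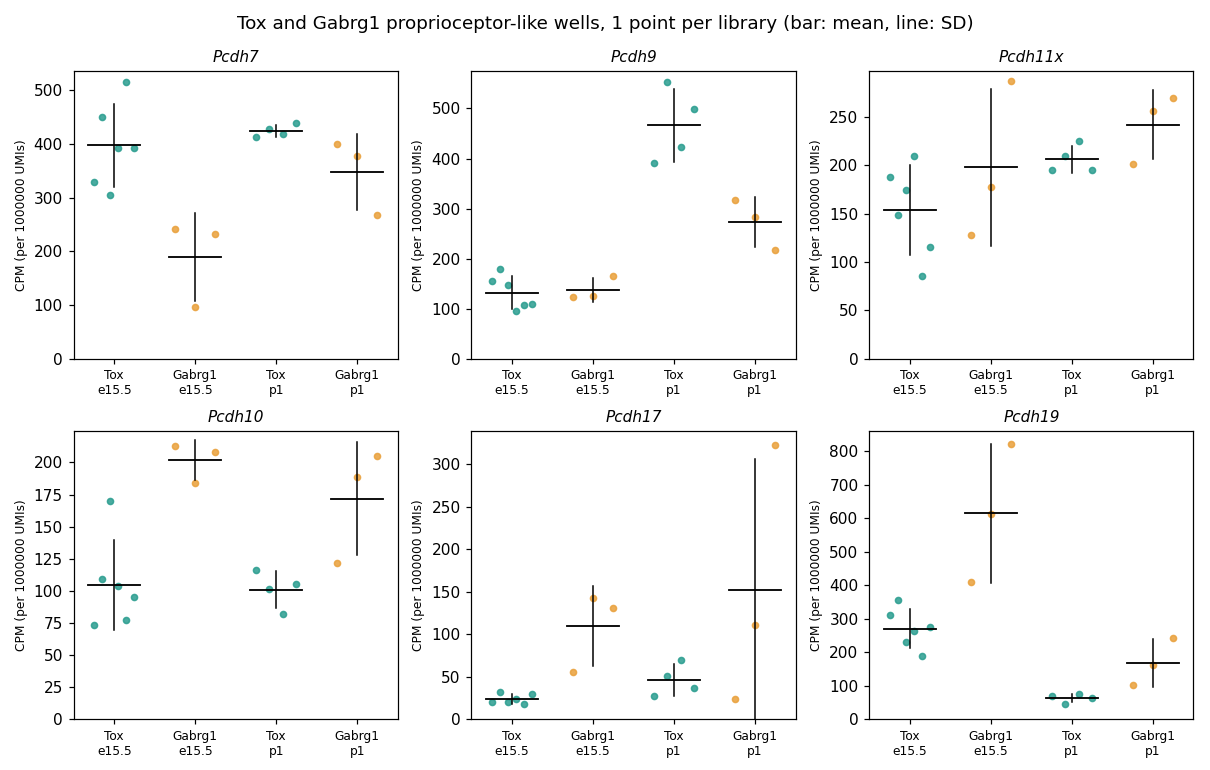
CPM of 6 members in sums of Tox and of Gabrg1 proprioceptor-like wells at e15.5 (6 and 3 sums) and p1 (4 and 3 sums), 1 point per library; the bar is the mean and the line the SD. Pcdh10, Pcdh17 and Pcdh19 sit lower and Pcdh7 sits higher in the e15.5 Tox sums, with no overlap.

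Because *Pcdh10*, *Pcdh17* and *Pcdh19* differed in the same direction between these e15.5 wells, the bases before their RefSeq transcription starts are shown, on each gene's own strand from 5′ to 3′ in GRCm38.p6. Capitals mark GATTGG, that is CCAATC on the other strand, which holds the core of the CCAAT box. The motif was picked after reading the sequences. The windows are chr3:45378248-45378397 (plus strand), chr14:84443413-84443562 (plus strand) and chrX:133688994-133689143 (minus strand).
Pcdh10: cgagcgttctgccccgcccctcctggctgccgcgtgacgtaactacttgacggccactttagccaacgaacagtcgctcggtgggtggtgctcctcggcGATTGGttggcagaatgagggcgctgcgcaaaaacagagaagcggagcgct
Pcdh17: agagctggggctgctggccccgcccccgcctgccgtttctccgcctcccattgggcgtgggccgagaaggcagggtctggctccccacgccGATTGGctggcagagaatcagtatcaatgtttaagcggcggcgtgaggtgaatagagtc
Pcdh19: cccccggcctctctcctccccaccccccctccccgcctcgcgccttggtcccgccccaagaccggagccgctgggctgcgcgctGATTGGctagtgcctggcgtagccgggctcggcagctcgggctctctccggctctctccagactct
These 150-base stretches hold 16, 11 and 14 CpG dinucleotides and are 62.7%, 64.7% and 74% G or C. Over the 250 bases before the start, CCAATC on either strand was found for *Pcdh9*, *Pcdh10*, *Pcdh17*, *Pcdh18* and *Pcdh19*, and 14.6% of 32851 RefSeq promoter windows of that length hold it. The shorter CCAAT, which contains no other searched motif but lies within CCAATC, was also found for *Pcdh20* and is in 33.8% of windows. It was not found for *Pcdh7*, and TATAAA and TGTGGT were found for none of the 7 members with a window. A match is a description of letters only.

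Single wells were then read for combinations, after thinning every proprioceptor-like well to 10000 UMIs so that depth was equal, with 1 UMI taken as detection. The mean number of members per well, averaged within libraries, was 3.74 ± 0.51 (SD, n = 10 libraries) at e15.5 and 4.38 ± 0.133 (SD, n = 6) at p1. The e15.5 libraries ran from 2.69 (replicate 6) to 4.22 and the p1 libraries from 4.21 to 4.61, so that only the highest e15.5 library reached past the lowest p1 library. The difference of 0.64 had p = 0.00687 in a two-sided exact permutation test over libraries. It depended on the depth chosen: at 20000 UMIs it was 0.537 (p = 0.0283, exact permutation test), at 50000 UMIs, with 257 and 197 wells left, 0.159 (p = 0.499), and without thinning e15.5 wells, which were deeper, held more members (6.31 against 5.92, difference -0.385, p = 0.275).

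Most wells held several members at once. At e15.5 89 wells (28.3%) held 4 members, 72 (22.9%) held 5, 66 (21%) held 3 and 7 (2.22%) held none, and at p1 119 wells (32.2%) held 5, 106 (28.7%) held 4, 69 (18.7%) held 3 and 52 (14.1%) held 6. *Pcdh7* was detected in 82.2% of e15.5 wells (exact 95% interval 77.5 to 86.3) and 96.2% of p1 wells (93.7 to 97.9). *Pcdh9* went from 58.1% (52.4 to 63.6) to 94.3% (91.4 to 96.4), and *Pcdh19* from 80.3% (75.5 to 84.6) to 53.1% (47.9 to 58.3). For these 3 members the share moved in the direction of the library level. The intervals cover counting error only. Without thinning, *Pcdh7* was seen in 94.9% and 98.9% of wells, *Pcdh9* in 90.8% and 99.2%, and *Pcdh19* in 95.9% and 83.7%, at median depths of 116415 and 55049 UMIs. The remaining shares at e15.5 and p1 were 59% and 69.9% for *Pcdh10*, 56.5% and 74.8% for *Pcdh11x*, 28.6% and 36.3% for *Pcdh17*, 9.52% and 7.86% for *Pcdh18*, and 8.89% and 7.05% for *Pcdh1*.

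Connective-tissue-like wells, thinned alike, give the share that free RNA and true expression together leave in a non-neuronal class. It was 35.6% for *Pcdh7*, 39.6% for *Pcdh9*, 15.8% for *Pcdh10*, 28.3% for *Pcdh11x*, 7.75% for *Pcdh17*, 29.9% for *Pcdh19* and 3.21% for *Pcdh1*, all below the e15.5 proprioceptor-like shares, and 59.4% for *Pcdh18*. The connective-tissue-like class itself holds *Pcdh18* at a high level, so it gives no background for that member. Glia-like wells, thinned alike, were above the e15.5 proprioceptor-like shares for *Pcdh7* (92%), *Pcdh9* (66%), *Pcdh17* (38%), *Pcdh1* (28%) and *Pcdh18* (18%). They were below them for *Pcdh10* (52%), *Pcdh11x* (10%) and *Pcdh19* (22%). Among other-sensory-neuron-like wells *Pcdh1* (24%) and *Pcdh17* (30%) were above, and *Pcdh7*, *Pcdh9*, *Pcdh10*, *Pcdh11x*, *Pcdh18* and *Pcdh19* below. *Pcdh20* was seen in 0 of 315 thinned e15.5 wells, which allows a share of wells with a UMI at this depth of up to 0.952%, in 1 of 369 p1 wells, and in 18.3% of the wells of the unnamed cluster. Before thinning 1 e15.5 proprioceptor-like sum held a single UMI.

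**Figure D4:**
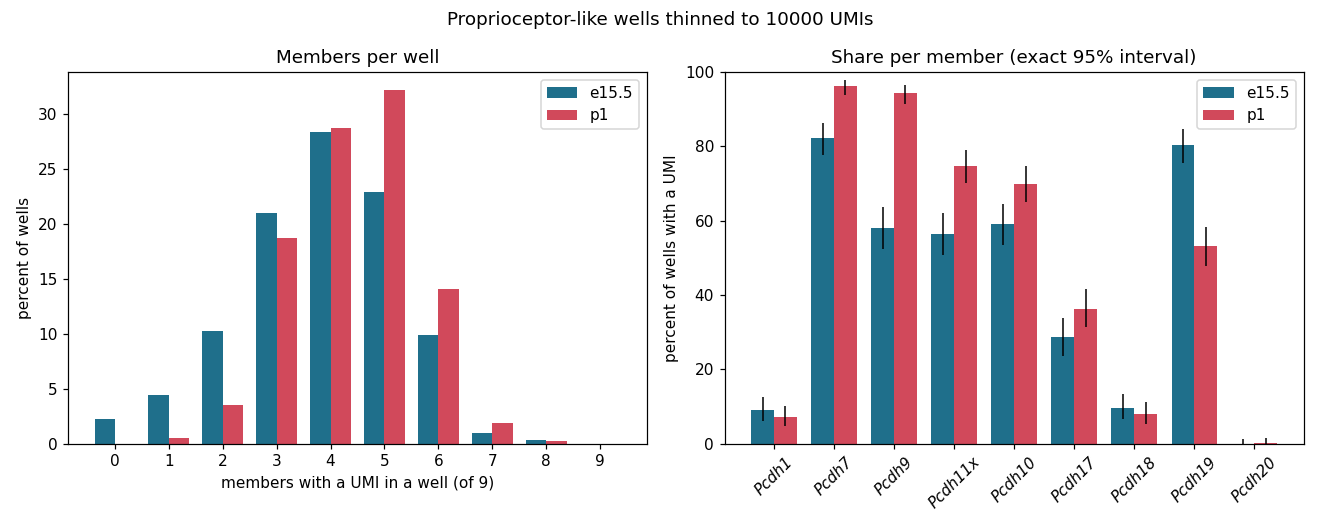
Left, percent of proprioceptor-like wells by the number of members with a UMI after thinning to 10000 UMIs; right, percent of wells with a UMI of each member, with exact 95% binomial intervals, at e15.5 (315 wells) and p1 (369 wells). Most wells held 3 to 5 members, and Pcdh9 and Pcdh19 shift in opposite directions between the stages.

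The members combined in many ways. There were 83 distinct sets in 315 e15.5 wells, 36 of them in a single well, and 60 in 369 p1 wells, 26 in a single well. The 10 commonest sets covered 46.3% of wells at e15.5 and 69.9% at p1. The commonest set was the same at both stages, *Pcdh7* with *Pcdh9*, *Pcdh10*, *Pcdh11x* and *Pcdh19*: 33 wells (10.5%) in 9 libraries at e15.5 and 54 wells (14.6%) in all 6 libraries at p1. It is made of the 5 members detected most often at each stage. At p1 the next were the same set without *Pcdh19* (36 wells, 9.76%) and the same set with *Pcdh17* (34 wells, 9.21%), and at e15.5 the set without *Pcdh10* (20 wells, 6.35%) and without *Pcdh11x* (19 wells, 6.03%). With 1 UMI as detection a member missed at this depth counts as absent, so sets undercount what a cell expresses.

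Pairs of members fell close to what their own shares give within each library. At e15.5 *Pcdh11x* and *Pcdh19* met in 146 wells where the product of shares gives 133, above it in 8 of 8 libraries, and in 158 wells against 145.7 at p1, above it in 5 of 6. *Pcdh9* with *Pcdh19* (154 wells against 142.5) and *Pcdh7* with *Pcdh11x* (144 against 137.2) were also above it in 8 of 8 e15.5 libraries, but at p1 these pairs met in 183 wells against 184 and 266 against 265.9. At 20000 UMIs the e15.5 excess was smaller: *Pcdh11x* with *Pcdh19* met in 189 wells against 183.9 and *Pcdh9* with *Pcdh19* in 194 against 190.6, each above it in 5 libraries and below in 2, and *Pcdh7* with *Pcdh11x* in 192 against 190.3 (4 above, 3 below). *Pcdh17* with *Pcdh19* met in 76 wells against 66.75, and *Pcdh7* with *Pcdh10* in 144 against 145.8. Within-library correlations of log-normalised levels, as a description across wells that share library and depth effects, had a median over 8 e15.5 libraries of 0.514 for *Pcdh17* with *Pcdh19* and 0.39 for *Pcdh11x* with *Pcdh19*. At p1 the same medians over 6 libraries were 0.167 and 0.325.

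Among e15.5 proprioceptor-like wells several members varied more than other genes of like abundance. The variance of *Pcdh19* was 4.17 times the fitted trend (rank 33 of 17432 genes) and that of *Pcdh7* 4.11 times (rank 37), followed by *Pcdh11x* at 3.51 (rank 69), *Pcdh9* at 2.54 (214), *Pcdh10* at 2.52 (222), *Pcdh17* at 1.96 (515) and *Pcdh18* at 1.77 (766). *Pcdh1* was near the trend at 1.1, with 30.9% of genes ranked above it. At p1 the same ratio was 1.64 for *Pcdh11x* (rank 290 of 17098), 1.53 for *Pcdh9*, 1.52 for *Pcdh17* and 1.32 for both *Pcdh7* and *Pcdh19*. No test was run on these ranks. The 2 largest e15.5 proprioceptor-like clusters held 150 and 127 wells. Between them *Pcdh10* stood at 190.2 and 110.3, *Pcdh17* at 58.85 and 31.76 and *Pcdh11x* at 116.5 and 205.5, whereas *Pcdh19* stood at 324 and 324.5. The remaining such cluster held 38 wells at a median of 29983.5 UMIs. There *Pcdh10* stood at 70.16, *Pcdh17* at 24.95, *Pcdh11x* at 34.3 and *Pcdh19* at 145.8. *Pcdh7* stood at 105.2 there, against 344.1 and 366.3, and *Pcdh9* at 36.64, against 125.6 and 116.4. The ranks and the members per well above include these 38 wells, whose part was not tested.

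The genes whose well-to-well pattern was most like that of a member were taken by the median within-library Pearson r over 8 e15.5 libraries (297 wells, 13380 genes). For *Pcdh7* these were *Ndst3* (0.646), *Ptprr* (0.605) and *Tenm3* (0.6), for *Pcdh9* *Cadm1* (0.583), *Ncan* (0.582) and *Thsd7a* (0.571), and for *Pcdh10* *Unc5b* (0.519), *Usp34* (0.502) and *Ubr3* (0.491). For *Pcdh11x* they were *Serpini1* (0.528), *Sgpl1* (0.505) and *Cpd* (0.445). For *Pcdh17* the gene ranked highest was another member, *Pcdh19* (0.514), before *Tle1* (0.509), and for *Pcdh19* they were *Prss12* (0.533), *Camk2d* (0.53) and *Edil3* (0.524). At p1 *Serpini1* was again on the list of *Pcdh11x* (0.474 over 6 libraries) and *Edil3* on that of *Pcdh19* (0.396, beside *Robo2* at 0.409).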

How the data were processed

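The deposited values were raw UMI counts per gene and well, which the authors made with scruff (per the methods) from CEL-Seq2 reads on the mm10/GRCm38 mouse genome (per the labels' processing notes). Here wells with at least 10000 UMIs were kept, and wells holding 2 cells were not removed. Every library numbers its wells alike, so wells are told apart by library and number. Gene names for 49326 of 49671 identifiers and places came from GENCODE M21. Wells were log-normalised (scater 1.30.1) and clustered per stage (scran 1.30.0, 50 principal components, 10 neighbors, walktrap) without *Pcdh* and *Cdh* genes. Clusters were named from marker lists, and the rule for naming was set after the clusters were seen. Some p1 clusters have leading genes that are not markers, and they were named because most of their wells held the proprioceptor markers.

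Raw counts were summed per library and class (at least 5 wells) and tested with edgeR 4.0.16 in R 4.3.3 (TMM scaling, filterByExpr, quasi-likelihood test, Benjamini-Hochberg adjusted p under 0.05, with all tested genes in the adjustment). All named e15.5 classes shared 1 fit. Alternatives were DESeq2 1.42.0, other scalings, filters, well minima, neighbor numbers and blocks, and leaving out each library. The script was tested on simulated data. Sums of the same library share a preparation, so class and *Tox* comparisons are paired (median correlation of deviations 0.196 between classes, 0.408 between neuron classes, 0.233 and 0.292 between *Tox* and *Gabrg1* sums at e15.5 and p1). No 2 libraries were alike within counting noise (smallest chi-square per degree of freedom 5.76 at e15.5 and 3.71 at p1). The members and lists were chosen with earlier results of these data known. Named were all members, up to 4 genes per comparison with the smallest adjusted p from the list of related genes (beyond which *Pcdh8* is named against connective tissue), and up to 3 genes of most alike pattern per member. One gene that this rule selects is not reported here. Promoter windows came from RefSeq (GRCm38.p6): 7 of 9 members were matched and used.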

Additional observations from a re-analysis of the deposited data

Results flagged for a closer look

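Of 74 sets of 4 to 10 library values, 10 had a highest or lowest value far from the rest by Dixon's criterion, and chance alone flags about 1 in 20. Among proprioceptor-like sums, e15.5 replicate 6 had the lowest *Pcdh1* level (6.16 CPM from 9 UMIs, next 9.44) and the highest *Pcdh10* level (264.3, next 169.4), and it was also the library with the fewest members per thinned well. *Pcdh10* was far from the rest in the *Tox* wells of e15.5 replicate 2 (169.7, next 109.3), and *Pcdh19* in the connective-tissue-like wells of replicate 7 (94.54, next 62.44). In the unnamed cluster replicate 10 stood apart for *Pcdh9* (571.5, next 218) and *Pcdh11x* (89.3, next 26.6, from 10 UMIs). *Pcdh20* was listed 4 times on very few UMIs: 2.44 in other sensory neurons of replicate 9 (2 UMIs), 0.1283 in proprioceptor-like wells of e15.5 replicate 10 (1 UMI), 16.77 in those of p1 replicate 3 (4 UMIs) and 0.3297 in *Tox* wells of p1 replicate 1 (1 UMI).

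The unnamed e15.5 cluster, which entered no comparison, held *Pcdh20* at 36.52 CPM (59 UMIs in 82 wells).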

How the results depend on the processing

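Of 646 member results under alternatives, 600 kept direction and side of the threshold, 21 lost the call, 15 gained it and 10, none of them called, changed sign. On the log2 scale these were, between stages, *Pcdh10* with total-count scaling (-0.146), no filter (-0.0434), at least 10 wells (-0.0246) and without p1 replicate 2 (-0.0431, up to 0.188 without another library), and *Pcdh1* without p1 replicate 1 (0.0178, down to -0.21 without another); against other neurons, *Pcdh17* with at least 10 wells (0.133) and *Pcdh7* without replicate 1 (-0.00778, up to 0.506); and in e15.5 *Tox* wells, *Pcdh9* with quantile filters (0.0114) and without replicate 9 (0.108, down to -0.314) and *Pcdh11x* without replicate 9 (0.0861, down to -0.634). The number of members called against connective tissue was 8 and ranged from 7 to 8 when each library was left out. Against other sensory neurons it was 5, and 3 with the study's quantile filters (0.3 and 0.75), 4 to 6 without 1 library. With 20 neighbors no other-sensory-neuron-like class was found, so this comparison could not be fitted. The e15.5 proprioceptor-like clusters then held 100 and 260 wells, more than the 315 wells with 10 neighbors. Between stages it was 5, and 4 to 6 without 1 library. For *Tox* against *Gabrg1* at e15.5 it was 4, and 1 with the quantile filters, 2 to 4 without 1 library; 512 genes passed, 87 with those filters and 303 without replicate 9. Sums of at least 10 wells could not be fitted there. At p1 it was 1, and 3 with DESeq2, 4 without the filter, 3 with at least 10 wells, 2 with 1 marker UMI and 0 to 4 without 1 library; 107 genes passed, 209, 615 and 256 under the first 3 of these and 22 to 466 without 1 library. The p1 minus e15.5 difference in members per well (0.64) was 0.537 at 20000 and 0.159 at 50000 UMIs, turned to -0.385 without thinning, and ran from 0.523 to 0.693 without 1 library. A second thinning draw, added after seeing the data like the 50000 UMIs and the total-count scaling, gave 0.672. Members per e15.5 well (3.83) were 4.89 at 20000 UMIs, 6.12 at 50000, 6.37 without thinning, 2.42 with at least 2 UMIs and 3.78 to 3.90 without 1 library. The cause of these changes was not tested.

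With the replicate block, which pairs sums of the same library, the connective, neuron, e15.5 *Tox* and p1 *Tox* comparisons called 8, 5, 4 and 1 members. These were the counts without it. The *Tox* blocks rest on only 3 pairs of sums at e15.5 and 2 at p1, which leaves little to estimate the spread. Between stages libraries share only a number (median correlation -0.231 over 6 pairs), and that block gave 4. *Pcdh20* had too few UMIs to test, and p1 replicate 3 gave 12 wells.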
